A study of Homo sapiens with 2 samples.

Results

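The genes described here are those of signalling by transforming growth factor-beta (TGF-beta) and bone morphogenetic proteins (BMP), as measured in SAS cells and in eSAS cells. They were chosen by the gene name printed on the array: the numbered TGFB, TGFBR, BMP, GDF, LTBP, SMAD, SMURF, GREM and ID genes, the BMPR, ACVR and INH genes, and BAMBI, NOG, FST, FSTL1 and FSTL3. The rule reads names and no measured values. It found 64 of 30484 named genes, with 97 of 41000 probes and 133 of 43376 probe spots.

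SAS is an established human cell line from a squamous cell carcinoma of the tongue, and it was the parental population, not passed through the selection. eSAS is the population kept after 5 rounds in which large spheroids, the cell aggregates that form in three-dimensional culture, were retained on a removable filter. Both were grown in DMEM medium with fetal bovine serum, and no transgene or drug is named for either. The labels call eSAS a population, the study's methods also describe growing lines from single cells after the selection, and whether this RNA came from such a line is not given in the sources used here. Total RNA of each was labelled with Cy3 and hybridised to 1 array, so that there was 1 array per population, no replicate and no test between the cells.

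Both arrays lay on 1 slide. Signal was well above background, as the scanner software judged it, at 69.4% of spots for SAS and 67.5% for eSAS, and no spot was saturated. The 75th percentile of the processed signal was 1242 for SAS and 1196 for eSAS, and dividing by it moved every ratio by 0.05 on the log2 scale. The number of arrays limits the precision, and the size of a difference can be set only against 2 technical errors. The first is the error the scanner software gives, about 0.20 on the log2 scale for the ratio of a bright single probe. At bright probes it follows from a multiplicative error of 10% in the software's error model and not from a spread measured here. The second is the spread of 208 probes spotted several times, whose ratios had a pooled SD of 0.07. These probes were well above background at every spot on both arrays, so that SD leaves out probes that fell to background. Neither error holds the variation between cultures. All 11 markers of squamous epithelium with a usable probe were above background. KRT5, KRT14 and SFN, however, were at least 1.5-fold lower in eSAS, and the median log2 ratio of the 11 was -0.46. PERP, the other marker listed, was on the array but had no spot left once spots marked by the scanner software were removed. Of the markers of other cells, 4 of 7 for fibroblasts, 2 of 4 for endothelium and 4 of 5 for leukocytes, PTPRC and CD3E among them, were not above background, and LUM, a collagen-binding proteoglycan of fibroblasts, was at least 2.40-fold higher in eSAS, with a signal of 3.21 in SAS that was not above background and 29.6 in eSAS. COL1A1 and CDH5 were above background in SAS only, at 15.1 and 17.0, with 4.90 and 6.88 in eSAS. THY1, VWF and CD14, which were measured on both arrays, lay within 1.5-fold, and THY1 was bright, at 2667 in SAS and 2556 in eSAS. For scale, 20865 of all 30484 named genes were above background on 1 or both arrays. The part of the markers named here in the results was not tested.

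TGF-beta, activin and BMP ligands are secreted dimers that bring together type I and type II receptor kinases at the cell surface. The type I receptor phosphorylates receptor-regulated SMAD proteins, SMAD2 and SMAD3 for TGF-beta and activin, SMAD1, SMAD5 and SMAD9 for BMP, which enter the nucleus with SMAD4. The pathway restrains itself through SMAD6 and SMAD7, and outside the cell through proteins that trap its ligands, such as follistatin and noggin. In epithelium TGF-beta is known to halt proliferation and to promote the epithelial-mesenchymal transition, and BMP signals are known to switch on the ID genes, whose products block basic helix-loop-helix transcription factors.

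Of the 64 genes, 44 were measured on both arrays, 2 were above background on 1 array only, and 18 were not above background on either. Among the 46 above background, 11 were at least 1.5-fold apart. In order of their ratio, follistatin (FST), 4.60-fold higher, the ligand TGFB3 and the inhibin subunit INHA were higher in eSAS. The ligands BMP2 and BMP7, SMAD9, the activin-binding FSTL3, ID2, SMAD7, the matrix protein LTBP2 and ID3 were lower, from the furthest to the nearest to 0. At least 2-fold higher in eSAS were FST and TGFB3, 2 of 46 or 4.35%, where 2.0% of all 20865 genes above background were. At least 2-fold lower were BMP2, BMP7 and SMAD9, 3 of 46 or 6.52%, against 2.14% of all genes. At 1.5-fold, INHA joined the higher genes, which made 3 of 46 or 6.52% against 4.64% of all genes. FSTL3, ID2, ID3, LTBP2 and SMAD7 joined the lower ones, which made 8 of 46 or 17.4% against 6.35%. The other 35 genes lay within 1.5-fold.

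The centre of the group did not move. The median log2 ratio of the 44 genes was 0.01 and that of all 19467 genes measured on both arrays was 0.00, and 22 of the 44 were higher and 22 lower in eSAS. The spread was wider, with an SD of 0.63 over the 44 genes and 0.37 over all. The spread also depends on brightness, being 0.51 over all genes with a signal under 100, 0.37 between 100 and 1000 and 0.24 above 1000. Of the 13 genes of the pathway in the dimmest class 3 were lower and 2 higher by 1.5-fold, where 8.44% of all genes in that class were lower and 7.92% higher. Of the 19 in the middle class 5 were lower and 0 higher, against 5.30% and 2.66% of all genes. Of the 12 brightest 0 were lower and FST alone was higher, against 2.60% and 0.993%. Fewer cells that express a gene and less of its RNA per cell cannot be told apart in RNA from whole cultures.

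**Figure D1:**
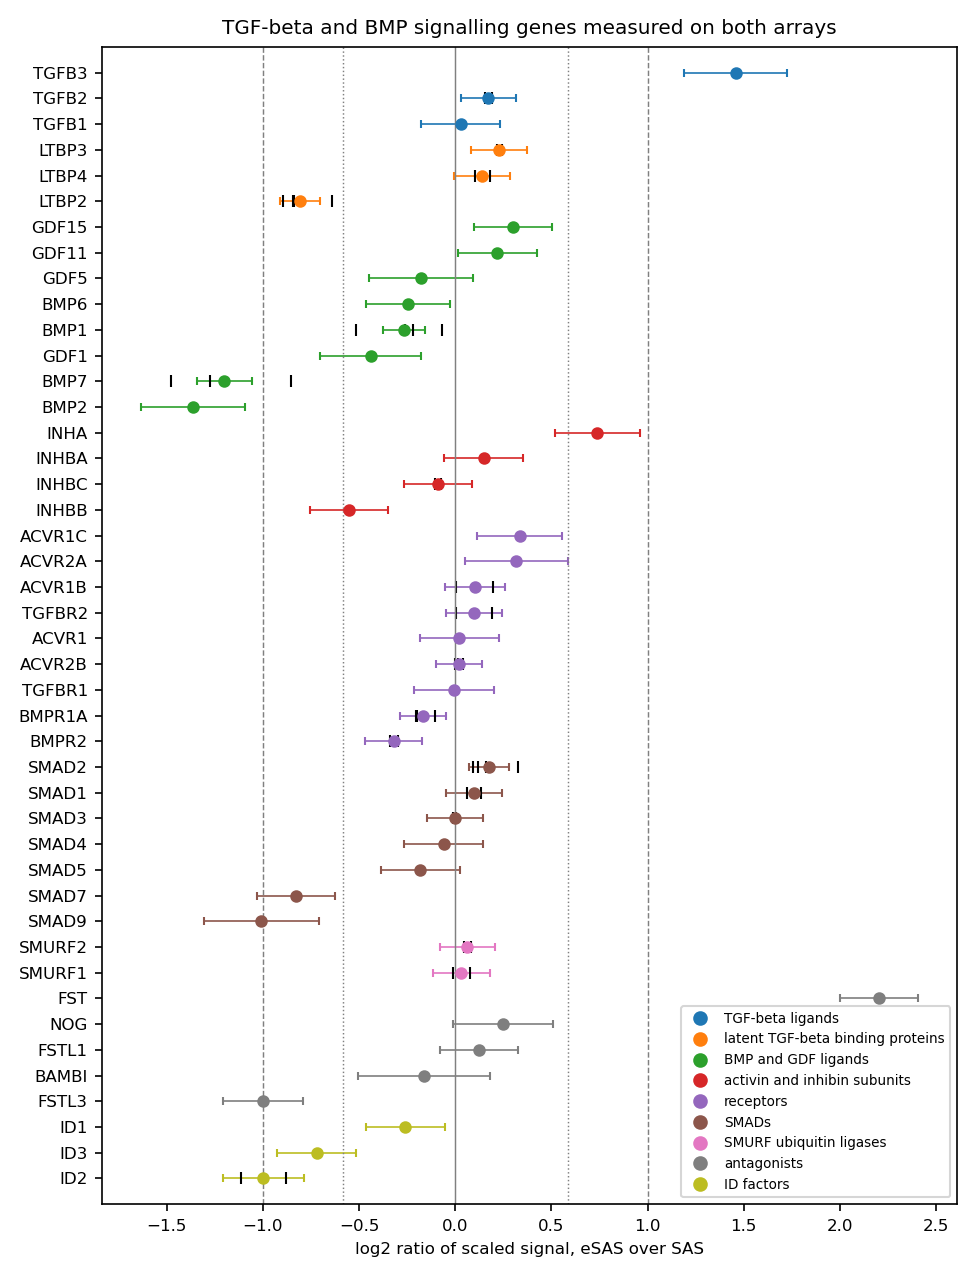
Log2 ratio of the scaled signal, eSAS over SAS, of the 44 genes measured on both arrays, coloured by role. Points are gene means and bars are the error given by the scanner software. Where a gene has several probes, black ticks are single probes and the bar combines their errors as if independent, which makes it shorter. Dotted and dashed lines mark 1.5-fold and 2-fold. FST and TGFB3 lie above 2-fold, and most receptors and SMADs lie close to 0.

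Among the TGF-beta ligands, TGFB1 and TGFB2, the forms found in most epithelial cells, were level between the populations, and TGFB3 was higher in eSAS from a faint signal. TGFB1 gave a processed signal of 354 in SAS and 348 in eSAS, and its 10 replicate spots had a mean log2 ratio of 0.03 with an SD of 0.08. The probes of TGFB2 read 6209 and 6820 in one case and 1126 and 1207 in the other, a mean log2 ratio of 0.17. The TGFB3 probe at chr14:75494657-75494716 (hg18, the build of the array's own probe positions) read 28.1 in SAS and 74.3 in eSAS, a log2 ratio of 1.46 with a software error of 0.27. Its other probe was at 8.0 and 3.38, not above background on either array, so the higher value of TGFB3 rests on 1 probe, and it was 0.13 when both were averaged with no filter. In the mean pixels without subtraction of the background, the form used below wherever such a ratio is given, it was 0.76, higher in eSAS by 1.5-fold but not by 2-fold.

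Latent TGF-beta binding proteins are matrix proteins of the fibrillin family, several of which hold TGF-beta in an inactive complex, while LTBP2 is the member known not to bind it. LTBP2 was lower in eSAS by all 4 of its probes, which lie between 74035123 and 74037473 on chromosome 14 of hg18. They read 171, 358, 547 and 206 in SAS and 92.0, 185, 294 and 127 in eSAS. The log2 ratios lay between -0.90 and -0.64, with a mean of -0.81 and an SD over probes of 0.11, a 1.75-fold lower level. One of the 4 LTBP2 probes lay in rows 450 to 510 of the array, which were set aside in an alternative picked from earlier results of these data, and without those rows the mean was -0.86. LTBP3 and LTBP4 had log2 ratios of 0.23 and 0.14. LTBP1, above background in SAS only, read 20.6 in SAS and 16.2 in eSAS. Its log2 ratio was -0.29, within its software error of 0.46.

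The BMP and GDF ligands were the least measured of the roles, with 8 of 19 genes read on both arrays, and their median log2 ratio was -0.26. BMP7, a ligand of kidney and bone development, was 2.30-fold lower in eSAS. Its probes on chromosome 20, spread from 55177211 to 55236846 of hg18, read 191, 1903 and 49.5 in SAS and 66.2, 758 and 26.4 in eSAS, and their log2 ratios were -1.48, -1.27 and -0.85. All 3 probes were thus lower, and the mean was -1.20 with an SD of 0.32. BMP2, an inducer of bone and cartilage, read 73.4 in SAS and 27.5 in eSAS on its single probe at chr20:6707242-6707301. That is a log2 ratio of -1.36 with a software error of 0.27, or 2.57-fold lower. Without subtraction of the background the ratio of BMP2 was -0.63 and that of BMP7 -0.86, so both stayed lower by 1.5-fold and neither by 2-fold. In the median pixels BMP2, at -0.58, lay at the edge of 1.5-fold.

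The other ligands of this class moved less. BMP1, which despite its name is a metalloprotease that trims procollagen, gave log2 ratios between -0.52 and -0.07 over 4 probes, with a mean of -0.27. BMP6 was at -0.25, GDF5 at -0.18, and GDF1, which is read from a transcript shared with a ceramide synthase gene, at -0.44. GDF11, a close relative of myostatin, and GDF15, a stress-induced cytokine, were higher in eSAS at 0.22 and 0.30, and GDF15 was bright on both arrays, at 27671 and 32822. BMP10, a ligand of the heart, was above background in eSAS only, with 14.2 in SAS and 19.1 in eSAS. Its log2 ratio was 0.49 with a software error of 0.49, as large as the ratio. BMP3, BMP4, BMP5, BMP15, GDF2, GDF3, GDF6, GDF8 (myostatin), GDF9 and GDF10 were not above background on either array.

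Activins are dimers of inhibin beta subunits, and pairing with the alpha subunit INHA makes the antagonist inhibin. INHBA, the subunit of activin A, was bright in both populations, at 15731 in SAS and 16777 in eSAS, with a log2 ratio of 0.15. INHBB, the subunit of activin B, read 6057 and 3979, a log2 ratio of -0.55, or 1.47-fold lower, which left it just short of the 1.5-fold line. INHA read 59.7 and 95.9, a log2 ratio of 0.74 with a software error of 0.22. Its ratio was 0.50 without subtraction of the background, below the line. INHBC had a log2 ratio of -0.09 and INHBE was not above background.

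The receptors lay close to 0. All 9 measured receptors of 12 had log2 ratios between -0.32 and 0.33, and their median was 0.02. TGFBR1, the type I receptor of TGF-beta, read 193 in SAS and 184 in eSAS, a log2 ratio of -0.01. The probes of TGFBR2, the type II receptor, read 15758 and 17342 in one case and 306 and 295 in the other, a mean of 0.10. For BMP, the type I receptor BMPR1A was at -0.17 over 3 probes and the type II receptor BMPR2 at -0.32, with its probes at -0.30 and -0.34. Among the activin receptors, ACVR1, ACVR1B and ACVR2B were between 0.02 and 0.10, and the dimmer ACVR1C and ACVR2A were at 0.33 and 0.32. BMPR1B, the endothelial ACVRL1 and the co-receptor TGFBR3 were not above background. No receptor passed 1.5-fold in either direction, where 4.64% of all genes above background were higher and 6.35% lower by that fold.

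SMAD7, an inhibitor, and SMAD9, a signal carrier of the BMP branch, were lower in eSAS, and the other 5 measured SMADs lay within 1.5-fold. SMAD2 was at 0.18 over 4 probes and SMAD3 at 0.01 and -0.01 on its probes. The shared partner SMAD4 was at -0.06, and the BMP-branch SMAD1 and SMAD5 at 0.10 and -0.18. SMAD7, which occupies activated receptors and draws ubiquitin ligases to them, read 913 in SAS and 495 in eSAS on its probe at chr18:44700780-44700839 (hg18). Its log2 ratio was -0.83 with a software error of 0.20, a 1.77-fold lower level, and it was -0.77 without subtraction of the background. Under normexp, a model of the background, fitted on all spots, a setting that moved the median of all genes to 0.68, it was -0.06. With the spots of non-uniform local background left out of that fit, it was -0.74. SMAD9, at chr13:36320813-36320872, read 50.5 and 24.2, a log2 ratio of -1.01 with a software error of 0.30. That is 2.01-fold, just past the 2-fold line, and without subtraction of the background it was -0.37, short of either line. SMAD6, the other inhibitory SMAD, was not above background. SMURF1 and SMURF2, ubiquitin ligases that act with SMAD7, were at 0.03 and 0.06.

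Among the antagonists, FST was far apart from the rest. Follistatin is a secreted protein that binds activins almost irreversibly and also holds some BMPs. Its probe at chr5:52816594-52816653 (hg18) read 3994 in SAS and 17696 in eSAS, a log2 ratio of 2.20 with a software error of 0.20. It was the 23rd highest ratio of the 19467 genes measured, and it was 2.18 without subtraction of the background. FSTL3, a related activin-binding protein, went the other way, with 291 in SAS and 140 in eSAS on chr19:633846-633905, a log2 ratio of -1.0 with a software error of 0.21. At 1.999-fold lower it lay just inside the 2-fold line, and it was -0.81 without subtraction of the background. FSTL1, a more distant relative, was bright and level, at 15169 and 15899 with a log2 ratio of 0.12. NOG, the BMP trap noggin, was at 0.25 and BAMBI, a receptor-like protein without a kinase, at -0.16, both from signals under 100, and GREM1 was not above background.

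**Figure D2:**
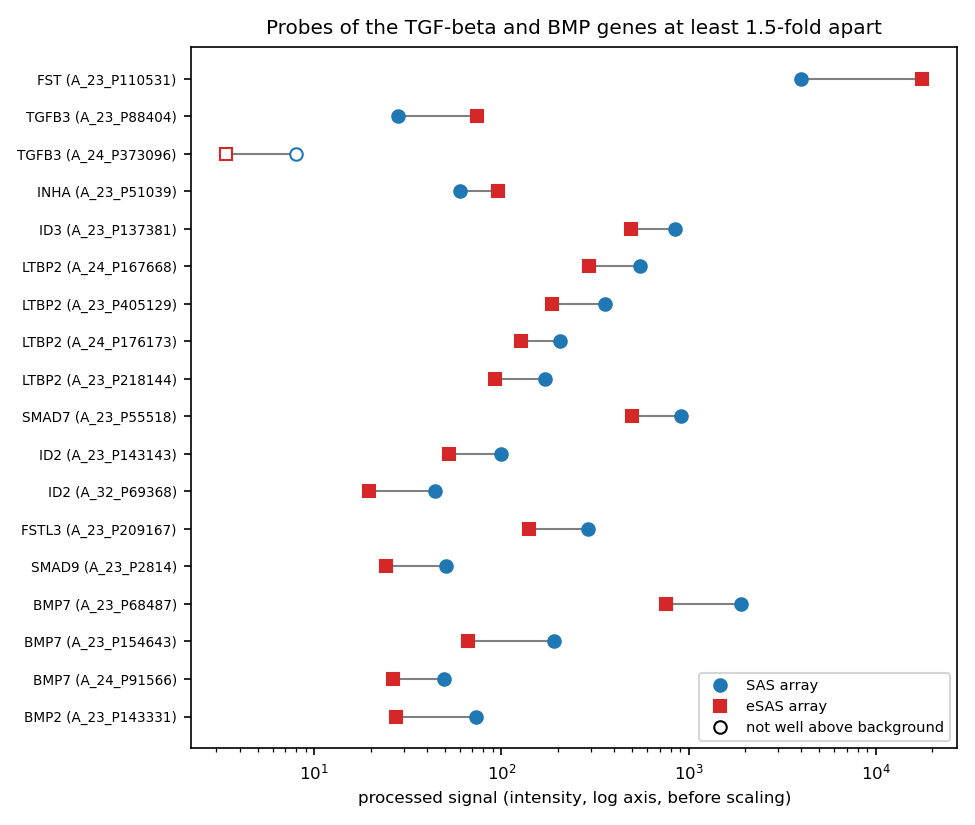
Processed signal, on a log axis and before scaling, of each probe of the 11 genes at least 1.5-fold apart, with circles for the SAS array and squares for the eSAS array. Open symbols mark signals not well above background, as for the second TGFB3 probe. All probes of BMP7, ID2 and LTBP2 were lower in eSAS, and FST was higher from an already bright signal.

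The ID genes encode helix-loop-helix proteins that lack the DNA-binding region and so hold their partners off DNA, and they are known as direct targets of the BMP-branch SMADs. All 3 measured ID genes were lower in eSAS, as were 9782 of all 19467 genes measured on both arrays. ID1 was the brightest, at 24722 in SAS and 19884 in eSAS on chr20:29657819-29657878 (hg18). Its log2 ratio was -0.26, or 1.20-fold, with a software error of 0.20. ID3 read 843 and 493 on chr1:23758253-23758312, a log2 ratio of -0.72 with a software error of 0.20, or 1.65-fold lower, and it was -0.69 without subtraction of the background. The probes of ID2 read 100.0 and 52.3 in one case and 43.9 and 19.5 in the other, log2 ratios of -0.88 and -1.12 with a mean of -1.0. At 1.997-fold ID2 lay just inside the 2-fold line, and without subtraction of the background it was -0.42, short of 1.5-fold. ID4 was not above background. With and without subtraction ID3 was past 1.5-fold and ID1 within it. Under normexp on all spots ID3 was at -0.13 and ID1 at -0.83, so that their places changed, and ID2 was at 2.30. The median of all genes was 0.68 in that setting.

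The promoters of ID1, ID2, ID3, SMAD7 and FST are shown because the first 4 belong to genes known to answer to SMADs and the last to the gene furthest from 0. Each is the 250 bases before the transcription start in RefSeq, on the gene's own strand, in GRCh38.p14. Capitals mark matches, on either strand, to CAGAC, the extended SMAD-binding element, which reads GTCTG on the other strand. The palindrome GTCTAGAC and the GC-rich GGCGCC were also searched on both strands, and neither was in these 5 windows; GTCTAGAC contains no CAGAC or GTCTG.
ID1 promoter, chr20:31605039-31605288, plus strand: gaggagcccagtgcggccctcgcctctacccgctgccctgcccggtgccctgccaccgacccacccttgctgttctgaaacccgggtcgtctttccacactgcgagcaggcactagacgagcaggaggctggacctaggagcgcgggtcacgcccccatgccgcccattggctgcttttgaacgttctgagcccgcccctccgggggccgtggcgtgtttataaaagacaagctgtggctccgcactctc
ID2 promoter, chr2:8681806-8682055, plus strand: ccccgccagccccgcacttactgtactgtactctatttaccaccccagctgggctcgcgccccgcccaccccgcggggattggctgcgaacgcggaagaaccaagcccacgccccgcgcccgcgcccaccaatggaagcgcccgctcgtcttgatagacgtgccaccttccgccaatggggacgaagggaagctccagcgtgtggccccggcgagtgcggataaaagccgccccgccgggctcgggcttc
ID3 promoter, chr1:23559502-23559751, minus strand: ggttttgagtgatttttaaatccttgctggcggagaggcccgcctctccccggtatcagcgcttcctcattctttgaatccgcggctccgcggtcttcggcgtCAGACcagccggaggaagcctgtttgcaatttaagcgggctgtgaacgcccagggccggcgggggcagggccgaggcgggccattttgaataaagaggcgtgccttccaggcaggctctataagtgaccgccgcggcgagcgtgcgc
SMAD7 promoter, chr18:48950966-48951215, minus strand: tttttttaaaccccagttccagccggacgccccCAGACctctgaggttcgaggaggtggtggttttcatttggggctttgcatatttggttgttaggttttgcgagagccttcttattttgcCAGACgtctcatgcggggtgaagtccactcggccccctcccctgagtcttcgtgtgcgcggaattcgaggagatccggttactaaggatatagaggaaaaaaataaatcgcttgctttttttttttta
FST promoter, chr5:53480379-53480628, plus strand: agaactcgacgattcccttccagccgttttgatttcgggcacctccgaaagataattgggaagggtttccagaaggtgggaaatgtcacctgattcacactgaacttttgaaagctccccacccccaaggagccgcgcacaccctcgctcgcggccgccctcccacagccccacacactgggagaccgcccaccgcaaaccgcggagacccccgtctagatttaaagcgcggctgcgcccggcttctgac
ID3 held 1 match, 147 bases before the start, and SMAD7 held 2, at 217 and 128 bases, while ID1, ID2 and FST held none. SMAD7 has 3 starts in the table, of which the most upstream is shown; the next held 1 match and the last none. Of the other genes searched, the upstream start of TGFB3 held 2 matches to the SMAD-binding element, at 245 and 133 bases, and its other start none. INHA held 1 at 148 and PTHLH 1 at 43, so that the element was found in genes higher and in genes lower in eSAS. BMP2 and BMP7 had no entry among the promoters used and were not searched. The GC-rich motif was in the windows of FSTL3, at 125 bases, and LTBP2, at 222. Of 4 starts of PMEPA1, 2 held the element and 1 held the GC-rich motif, and SMAD9 held no match. CAGAC was in 38.0% of all 35116 promoter windows of this length, GGCGCC in 16.4% and GTCTAGAC in 0.182%. A match is a run of letters and not a site of binding, and ID1 and ID2 show only that these letters were not in these windows.

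**Figure D3:**
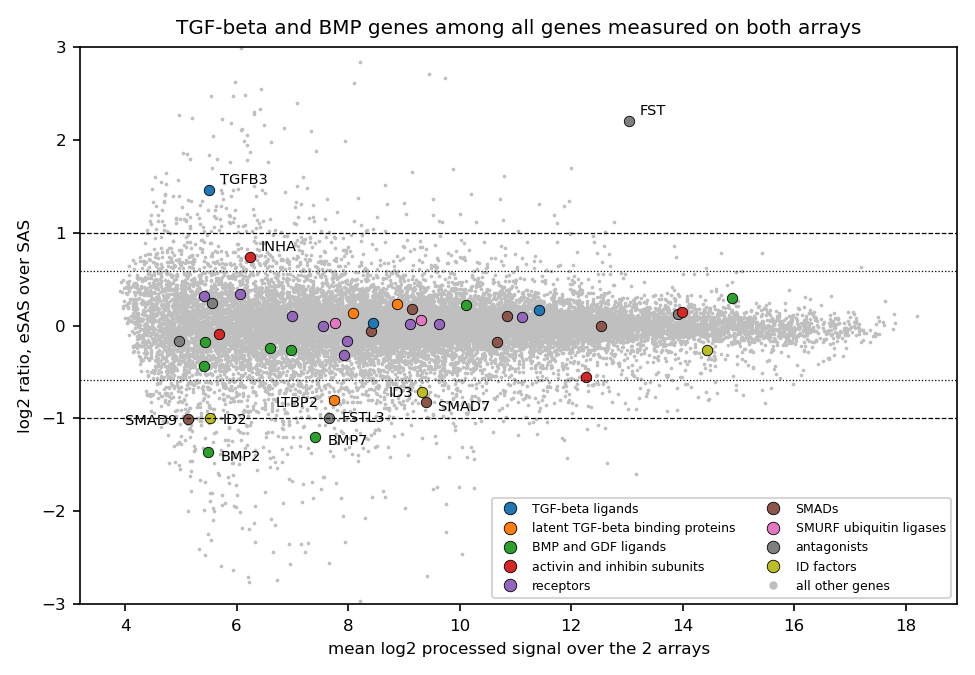
Log2 ratio, eSAS over SAS, against the mean log2 processed signal over both arrays, for all 19467 genes measured on both arrays (grey) and the 44 TGF-beta and BMP genes (coloured by role), with lines at 1.5-fold and 2-fold. FST stands alone among bright genes of the pathway, BMP2, ID2, SMAD9, TGFB3 and INHA lie at dim signals where all genes spread more, and 11 grey genes lie beyond the axis.

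How the background was treated decided which dim genes passed a fold. The deposited signal has it subtracted, which widens ratios near background, and the unsubtracted pixels narrow them. Of the 11 genes at least 1.5-fold apart, ID2, SMAD9 and INHA fell short of that fold in the unsubtracted mean pixels. FST, TGFB3, BMP2, BMP7, FSTL3, ID3, LTBP2 and SMAD7 stayed past it in the mean pixels, and FST alone stayed past 2-fold. In the median pixels BMP2 was short of 1.5-fold as well. FST, SMAD7 and ID3 moved less between these settings than BMP2, ID2, SMAD9 and TGFB3. Normexp on all spots moved the median of all genes to 0.68 and put 41.2% of them higher by 2-fold. FST was 1.61 there, while SMAD7 at -0.06 and ID3 at -0.13 fell short of 1.5-fold. These ratios are not taken from that median. With the 26 spots of non-uniform local background left out of the fit, FST was 2.18, SMAD7 -0.74 and ID3 -0.66.

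**Figure D4:**
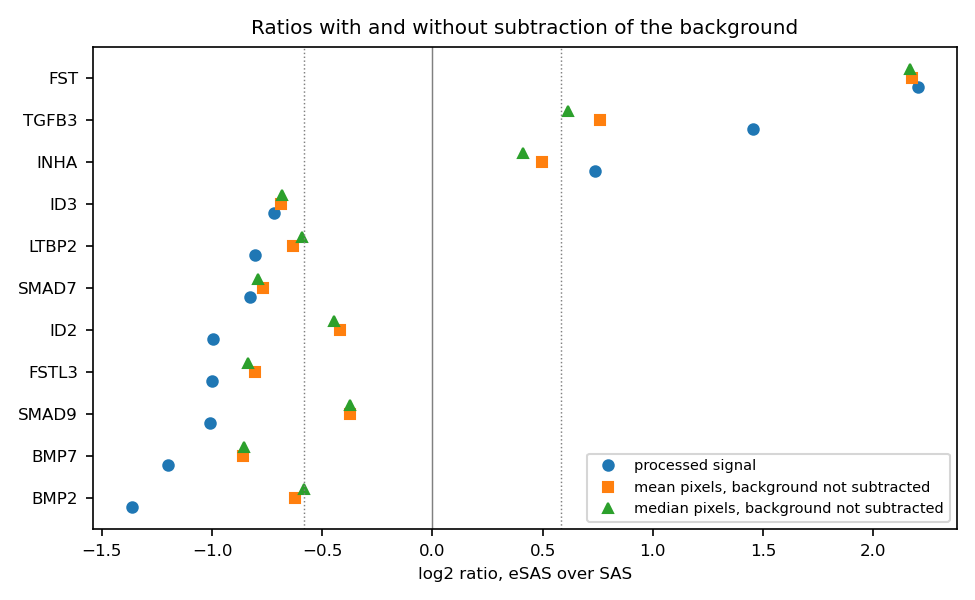
Log2 ratio, eSAS over SAS, of the 11 genes at least 1.5-fold apart, from the processed signal (circles) and from mean (squares) and median (triangles) pixels without subtraction of the background, with dotted lines at 1.5-fold. BMP2, ID2, SMAD9 and TGFB3 move most towards 0, and FST, SMAD7 and ID3 least.

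Beyond these families, 67 further genes of the pathway were followed, of which 47 were above background, 44 were measured on both arrays and 20 were not above background. Their median log2 ratio was -0.08, and 2 of the 47 were higher and 5 lower by 1.5-fold, with 40 within it, where 4.64% of all genes were higher and 6.35% lower. The largest difference was in PMEPA1 (TMEPAI on the array), a TGF-beta-induced membrane protein that sequesters SMAD2 and SMAD3. It read 2414 in SAS and 364 in eSAS on its brightest probe, and its probes gave log2 ratios of -2.71 and -2.67, a 6.47-fold lower level. PTHLH, which encodes parathyroid hormone-related protein, read 281 and 53.2, a log2 ratio of -2.35 or 5.09-fold lower. SNAI2, a transcription factor of the epithelial-mesenchymal transition, was at -0.73 with 1219 and 708. Each of these 2 values rests on 1 of 2 probes, the only one above background on both arrays, and the eSAS signal of PTHLH was dim.

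The lists around these genes were mixed. Of 14 TGF-beta target genes, all above background, 3 were lower, PTHLH and SNAI2 among them, and 1 was higher, CDKN2B, which encodes the cell cycle inhibitor p15, at 0.72 with 317 in SAS and 525 in eSAS. The shares of all genes were 6.35% lower and 4.64% higher. The other 10 were within 1.5-fold, and the list median was -0.17. For COL4A1 the probes disagreed, at -0.98 and 0.88, so its mean near 0 describes neither. Of 8 BMP target genes 3 were measured, RUNX2, a transcription factor of bone, was lower at -0.61 and 5 were not above background. Of 15 intracellular regulators all were above background and PMEPA1 alone passed 1.5-fold, beside the same 6.35% of all genes lower and 4.64% higher. SOST, the secreted antagonist sclerostin, was at 1.34 from dim signals of 23.3 and 56.8.

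**Figure D5:**
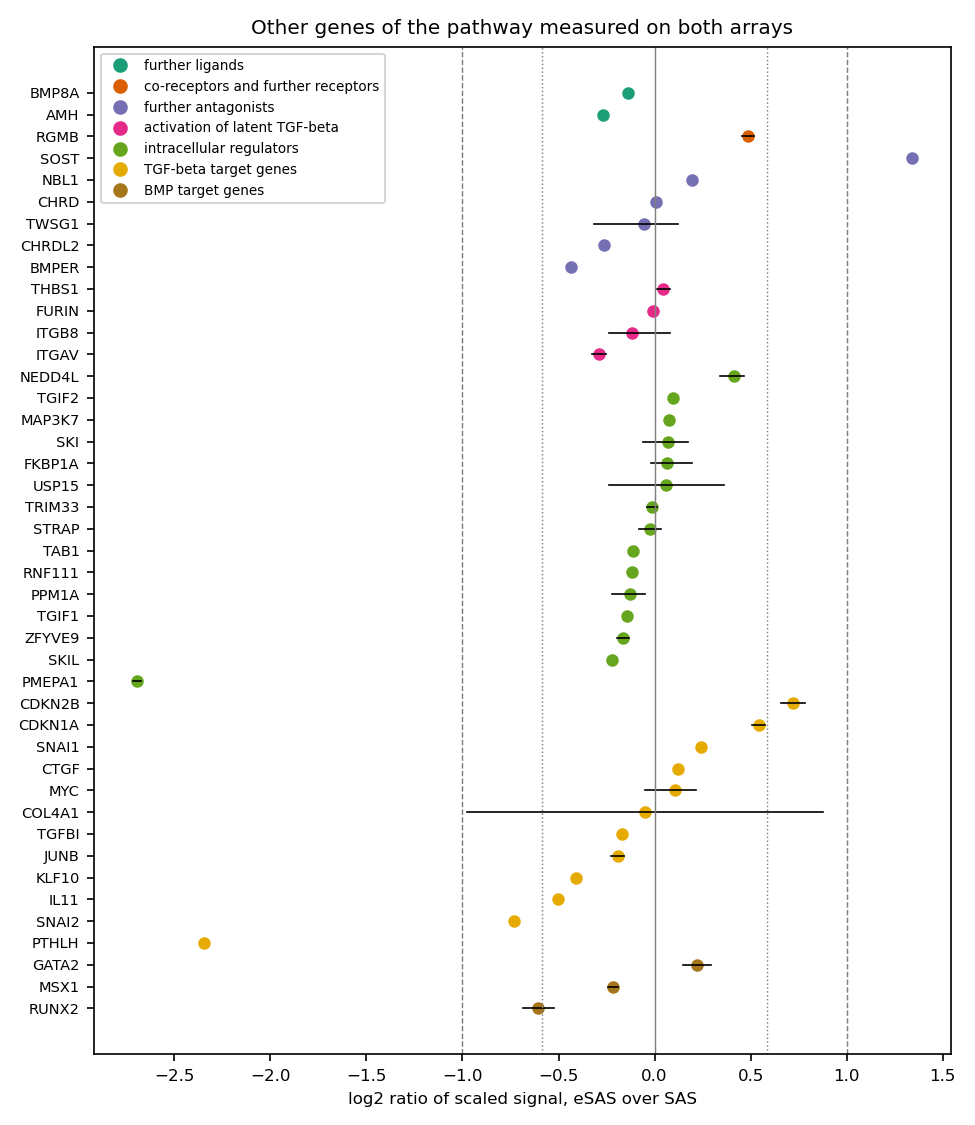
Log2 ratio of the scaled signal, eSAS over SAS, of 43 further pathway genes measured on both arrays, grouped and coloured by list, with black lines from the lowest to the highest probe and lines at 1.5-fold and 2-fold. PMEPA1 and PTHLH lie below -2, SOST lies above 1, and the intracellular regulators other than PMEPA1 lie within 1.5-fold. Of all genes above background, 4.64% were higher and 6.35% lower by 1.5-fold.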

How the data were processed

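Expression in SAS and eSAS was read from 2 single-colour arrays on the same slide. The authors deposited the output of Agilent Feature Extraction 10.7.3.1 (version per the labels), with linear intensity values per spot. The processed signal had the background subtracted and was not scaled between arrays, and the deposited series table equalled it at every spot. Here log2 of the processed signal minus each array's 75th percentile over non-control spots was used, eSAS minus SAS. Spots marked non-uniform or as outliers on either array were left out (330 probe spots), which left 40814 probes. Spots were averaged per probe. A probe was above background when over 50% of its spots were, and a gene was the mean of its probes above background on both arrays. Otherwise its brightest probe gave the ratio, against the higher of the dim array's own signal and the lowest signal above background there. The ratio is a lower bound only where that lowest signal was used. Genes were named from the array, and 92 of 97 probes matched a RefSeq accession. No annotation of hg18 was used, so exons and UTRs are not given. With 1 array per population no test was made, and a call is a fold of 1.5 or 2.

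The genes and lists were chosen with earlier results of these data known. Any gene of the families could be named, and a further pathway gene where it was at least 1.5-fold apart; COL4A1 was named after its values were seen. Some single genes are not reported here, although counts include them. The alternatives were other scalings, background treatments and filters. R 4.3.3, limma 3.58.1 and Python 3.11.15 were used, and the counting was tested on simulated data.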

Additional observations from a re-analysis of the deposited data

How the results depend on the processing

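The counts in the report were 2 genes higher and 3 lower by 2-fold, 3 higher and 8 lower by 1.5-fold, and a median log2 ratio of 0.01. Centring on the median, quantile normalization, the series table, no lower limit and keeping marked spots left these counts within 1.5 times and the ratios of all 46 genes above background within the SD of replicate spots. Setting aside rows 450 to 510 left 43 of the genes, and none of their ratios moved by more than that SD. Taking the brightest probe of each gene moved 3 ratios by more, with no change of sign. Without scaling, 5 of 46 genes were lower by 2-fold, against 2.38% of all genes. With mean pixels and no subtraction of the background, 1 of 46 was higher and 0 lower by 2-fold, against 0.46% and 0.609%. With median pixels these were 1 and 0, against 0.623% and 0.599%, and 5 were lower by 1.5-fold, against 2.84%. Normexp without the 26 spots of non-uniform local background also gave 1 and 0, against 0.312% and 0.609%. With no filter on dim probes all 64 genes were counted, and 4 were higher and 5 lower by 2-fold, against 3.44% and 3.69%. By 1.5-fold 5 were higher there, against 6.84% of all genes. Normexp on all spots gave 22 of 46 higher and 0 lower by 2-fold, where 41.2% and 0.57% of all genes were. By 1.5-fold it gave 30 higher and 2 lower, against 50.9% and 6.46% of all genes, and a median of 0.97. It turned BMP2 to 2.09, BMP7 to 0.96, FSTL3 to 0.94, ID2 to 2.30, LTBP2 to 0.97 and SMAD9 to 2.36. SMAD7 at -0.06 and ID3 at -0.13 lost their 1.5-fold there, and ID1 at -0.83 and INHBB at -0.96 passed it. The median of all genes was 0.68 in that setting. With the 26 spots left out of the fit it was -0.01, and 0 of the genes past 1.5-fold changed sign. How those spots act on the fit was not tested. No paired analysis was possible because each population had a single array, and the slide could not be a block because both arrays lay on it. Leaving out a replicate was not possible either. What depth limits is the dim genes: near background, signals under 100 gave ratios that depend on the subtraction.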

Other observations

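The replicate spots of 1 probe gave a check on single values. The 10 spots of TGFB1 had log2 ratios between -0.06 and 0.19, and those of SMAD3 between -0.34 and 0.07 with an SD of 0.12, wider than the pooled SD of 0.07 over the 208 probes spotted several times. The SMAD4 probe had 1 spot marked by the scanner software, and its 9 other spots had an SD of 0.05.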
